A study of Rattus norvegicus with 24 samples.

Results

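The comparison described here sets cortical microvessels of rats without a liver against those of sham-operated rats, over all probes with 1 gene symbol whose signal could be read. It takes 16 of the 24 arrays of the study, 8 labelled HEP and 8 labelled Sham. HEP rats had a portocaval anastomosis (PCA), which joins the portal vein to the vena cava so that portal blood passes the liver by, and a total hepatectomy 24 h later. Sham rats had a mock operation in 2 steps. The remaining 8 arrays, labelled HAL, came from rats whose hepatic artery was ligated 24 h after the same anastomosis. Death by decapitation followed 8 to 12 h after the last operation in every group, and microvessels were isolated from the brain cortex. The labels used here name no strain, sex or age, nor whether different arrays came from different rats. The p-values therefore cover the spread between arrays, which may be technical. HEP models the loss of the whole liver, not a diseased liver, and it has the anastomosis added, which Sham lacks.

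Brain microvessels are lined by endothelial cells joined by tight junctions, which together with pericytes, a laminin-rich basement membrane and the endfeet of astrocytes form the blood-brain barrier. Nutrients cross by carriers such as the glucose transporter Slc2a1. In acute liver failure ammonia and other substances that the liver normally clears build up in blood, blood glucose falls, and brain oedema can follow.

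The table, as provided here, holds the decimals of log2 signals without their integer parts. Cells with 9 digits were taken to lie below 10 on the log2 scale, and cells with 8 digits at or over 10. Of 31099 probes 20832 had 1 gene symbol. Probes with 1 to 14 cells of 9 digits out of 24 were read as lying near 10, with 9 or 10 set before the decimals. There were 2527 such probes, which gave 1738 genes tested. Probes with no cell of 9 digits lie at 10 or above on every array, and there were 1933 of them. Their decimals were compared as positions on a circle of 1 log2 unit. The 307 genes tested were those whose decimals lay close together within each group, a choice that makes their p-values too small. Here a difference cannot be told from the same difference plus or minus 1, so a direction is given only up to 0.4. The 26639 probes below 10 were not read. In all 2026 genes were tested, 19 of them in both readings, and a call means an adjusted p of at most 0.05 in limma.

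The vessels could be recognised in the signals. All 24 arrays read 10 or above in at least 1 probe for 16 of 19 endothelial markers, compared with 0 of 20 neuron, 1 of 17 microglia and macrophage, 0 of 15 neutrophil and lymphocyte, 0 of 10 choroid plexus and 0 of 13 hepatocyte markers. Pericyte, smooth muscle, fibroblast, astrocyte and oligodendrocyte markers did so in 4 of 13, 5 of 13, 5 of 13, 5 of 15 and 3 of 14 cases. Summed marker levels could not be formed, since most markers lay below 10. Between HEP and Sham, 0 of 30 markers tested near 10 were called, against 2.82% of all genes there. At 10 or above 1 of 5 was called (Slc2a1), against 14.3% of all. Without HEP 8, 3 of the 30 were called, against 6.5% of all genes near 10. They were the pericyte genes Atp13a5 (-0.84, adjusted p = 0.0226) and Kcnj8 (0.68, adjusted p = 0.0466), which differed in opposite directions, and the fibroblast gene Col1a2 (-0.79, adjusted p = 0.0246). With HEP 8 they had differences of -0.72, 0.54 and -0.61 (adjusted p = 0.0767, 0.153 and 0.183). Atp13a5 was also called with all arrays among probes at least 100 times as likely near 10 as below (adjusted p = 0.0304), a choice not blind to the groups. All 3 fibroblast markers tested were negative, with a median of -0.476 and of -0.595 without HEP 8, the other 2 being Col3a1 (-0.48) and Aldh1a2 (-0.37). Kcnj8, Col3a1 and Aldh1a2 were named after their values were seen. The part of these cells in the results was not tested. In such bulk samples fewer cells of a type and less RNA per cell cannot be told apart.

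The array labelled HEP 8 did not lie with its group. Each array was placed between the Sham and HEP means of the other arrays, over the genes called without it, with 0 at the Sham mean and 1 at the HEP mean. HEP 8 had a median position of -0.07 near 10 and of 0.06 at 10 or above, and was nearer to the other HEP arrays in 11 of 103 and 10 of 50 genes read. The other 7 HEP arrays had median positions of 0.70 to 1.20 near 10 and 0.93 to 1.22 at 10 or above, and the Sham arrays of -0.00355 to 0.21 and -0.08 to 0.33. Results below keep HEP 8 as labelled and give the difference without it beside that of most called genes for which it was read. It was not read for Lama4, Cachd1, Dusp6, Gsta4, Higd1a, Nr1d2, Rac1, Ubl3, Slc18b1, Rab11a, Ptprb, Ctsl, Adgrf5 and Itprid2, whose readings are the same without it. Its place was not the same for every gene: among the 49 genes called near 10 it was read for 40 and lay nearer the Sham mean for 29. Why it lies there was not tested.

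**Figure D1:**
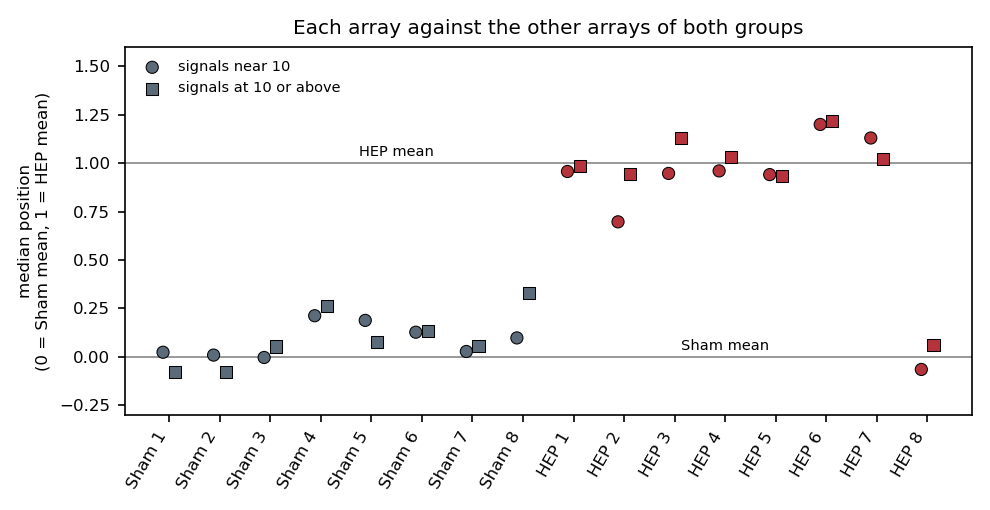
Median position of each array between the Sham mean (0) and the HEP mean (1) of the other arrays, for genes called without that array. Circles show signals near 10 and squares signals at 10 or above, Sham arrays grey and HEP arrays red. HEP 8 lies at -0.07, below all Sham arrays, and at 0.06, among them, and the other HEP arrays lie at 0.70 or more.

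Near 10, 49 of 1738 genes were called between HEP and Sham (2.82%), 28 higher (1.61%) and 21 lower (1.21%) in HEP. Counts of called list members near 10, given below with all arrays, stand against this 2.82%. Without HEP 8 there were 113 calls (6.5%), 62 higher (3.57%) and 51 lower (2.93%), and all 49 genes were called with the same sign. The size of the 49 differences ranged from 0.43 to 1.04 with a median of 0.78, while the median difference over all genes tested was 0.01, with 51.0% of them positive. All HEP readings lay outside the Sham range for 14 of 1738 genes (0.806%), and for 77 (4.43%) without HEP 8. For 44 of the 49 genes a signal near 10 was at least 100 times as likely, given all 24 cells, as one below 10 on all arrays. The same held for 1097 of all 1738 genes tested. The 5 others of the 49 were Pde6b, Gadd45g, Arid1b, Rgs12 and Fgl2, the last named after its values were seen, and their level is uncertain. For Pde6b the likelihood model gave a difference of 0.18, opposite in sign to its readings. Of the 49 genes 48 had the same sign in both. The model also allows single values below 9 or from 11 on, so a reading may be off by a whole unit. Zeros at the start of the decimals are lost in whole numbers. A value just over 9 can then leave 8 digits and be read as one from 10 on, with an error that need not be a whole unit. Model differences lay farther from 0 than the readings for Tpm1 (-1.56 against -0.79), Slc39a8 (-1.50 against -0.76) and Ptges (1.42 against 1.01). They lay close to the readings for Lama4 (-0.96 against -1.01) and Klf6 (0.68 against 0.65). Among the probes at least 100 times as likely near 10, 99 of 1102 genes were called (8.98%), and 150 (13.6%) without HEP 8. This choice is not blind to the groups, since the model fits a mean to each, and it may favour genes whose groups differ.

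**Figure D2:**
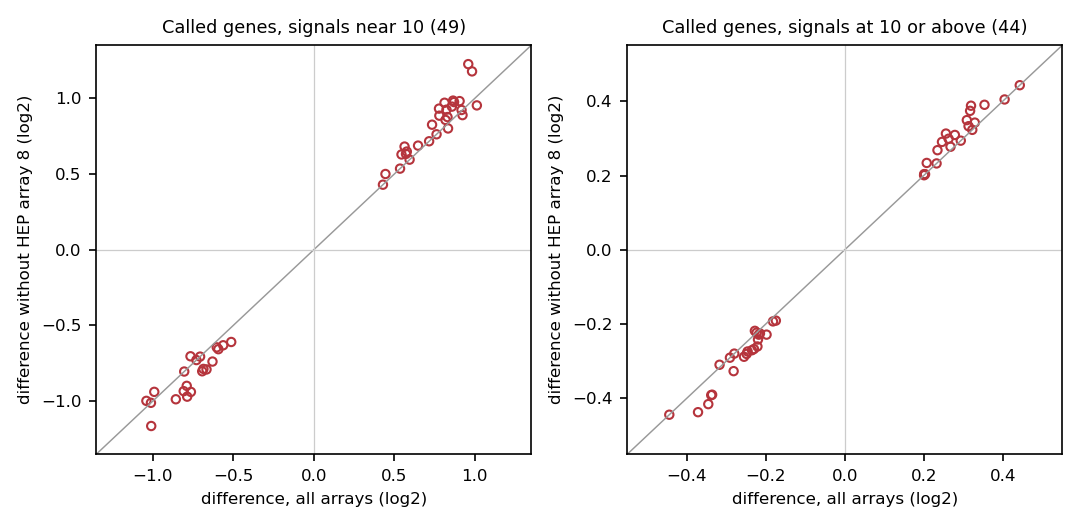
Difference HEP minus Sham of each called gene on the log2 scale, with all arrays (horizontal) and without HEP 8 (vertical), for the 49 genes near 10 and the 44 at 10 or above. Every point keeps its sign, and 34 and 31 of them lie farther from 0 without HEP 8.

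Of the genes called near 10 with all arrays, the one that rose most was Ptges, the inducible prostaglandin E synthase. Its readings ran from 9.25 to 10.34 (median 9.62) on 7 Sham arrays and from 10.12 to 10.95 (median 10.75) on 6 HEP arrays. A single Sham array lay inside the HEP range. Its mean rose from 9.64 ± 0.34 (SD, n = 7) to 10.65 ± 0.32 (SD, n = 6), a difference of 1.01 (SE 0.17, adjusted p = 0.00316), and of 0.95 without HEP 8. HEP 8 lay highest for this gene, at 10.95. Without HEP 8 Rgs12 and Gadd45g, both at an uncertain level, rose more than Ptges, by 1.23 and 1.18. Of 6 tested genes of prostaglandin, nitric oxide and vasoactive signalling, Ptges alone was called, with a list median of 0.11.

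Basement membrane genes moved in both directions. Adamts9, a secreted protease that cleaves matrix proteoglycans, ran from 9.21 to 10.46 (median 9.47) in 8 Sham and from 10.19 to 10.71 (median 10.50) in 8 HEP readings. A single Sham array lay at 10 or above, inside the HEP range, and Adamts9 rose by 0.92 (SE 0.15, adjusted p = 0.00256), and by 0.89 without HEP 8. The other Adamts9 probe near 10 differed by only 0.13. Lama4, the laminin chain of endothelial basement membranes, ran from 10.35 to 10.81 (median 10.60) on 7 Sham arrays and from 9.38 to 9.86 (median 9.56) on 7 HEP arrays. The groups did not overlap, and Lama4 fell by 1.01 (SE 0.16, adjusted p = 0.00256). HEP 8 could not be read for it. These were the calls among 10 tested matrix genes (1 higher, 1 lower, median 0.14), against 2.82% of all genes. Without HEP 8 the collagen Col1a2 was also called (-0.79, adjusted p = 0.0246). It is one of the fibroblast markers given above, all 3 of which had negative differences, and their part in the matrix genes was not tested.

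Genes of the response to amino acid shortage and of FOXO factors, which are active when insulin signalling is low, had 3 calls, all upward. Depp1, a FOXO target, ran from 9.30 to 10.88 (median 9.81) on 8 Sham arrays and from 10.67 to 10.97 (median 10.75) on 7 HEP arrays. All but the highest Sham array lay below the HEP range, and the rise was 0.92 (SE 0.18, adjusted p = 0.0109), with HEP 8 or without. Sesn2, a sestrin that restrains mTORC1, ran from 9.12 to 10.59 (median 9.32) on 8 Sham arrays and from 9.77 to 10.71 (median 10.47) on 8 HEP arrays, with overlap. It rose by 0.83 (SE 0.22, adjusted p = 0.0437) and by 0.80 without HEP 8, and the call ended without any 1 of 12 arrays (adjusted p up to 0.0844). Gadd45g, a stress-induced regulator of growth arrest, ran from 9.17 to 9.88 (median 9.57) on 8 Sham arrays and from 9.16 to 10.95 (median 10.88) on 8 HEP arrays. HEP 8 was the 9.16, and the other 7 lay at 10.12 or more, above all Sham arrays. It rose by 0.98 (SE 0.25, adjusted p = 0.0310), and by 1.18 without HEP 8. Its level is uncertain, as said, and the call ended without any 1 of 9 arrays (adjusted p up to 0.0725). Of 8 tested members 3 were called and 7 were positive, with a median of 0.40, against 2.82% and 51.0% of all genes. Among probes at least 100 times as likely near 10 as below, 2 of 7 were called (median 0.31), against 8.98% of all. That choice, as said, is not blind to the groups. Atf4, the transcription factor that governs much of this response, had a difference of 0.31 (adjusted p = 0.418, named after its values were seen).

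Hypoxia and glycolysis genes were called upward near 10, and at 10 or above 1 of 2 tested was, against 14.3% of all genes there. Higd1a, a mitochondrial protein induced by low oxygen, ran from 9.90 to 10.30 (median 9.96) on 8 Sham arrays and from 10.22 to 10.57 (median 10.54) on 7 HEP arrays. The ranges met only at their edges, and it rose by 0.43 (SE 0.10, adjusted p = 0.0191). The call ended without HEP 6 or HEP 7 (adjusted p = 0.0518 and 0.0531). Hk1, the hexokinase that takes glucose into glycolysis, ran from 9.46 to 10.12 (median 9.76) on 7 Sham arrays and from 9.79 to 10.65 (median 10.30) on 7 HEP arrays. The lowest HEP reading was HEP 8, the others starting at 10.21, above every Sham array. Hk1 rose by 0.55 (SE 0.14, adjusted p = 0.0388) and by 0.63 without HEP 8, and its call ended without any 1 of 11 arrays (adjusted p up to 0.0841). At 10 or above, Slc2a1, the glucose carrier of the barrier, had decimals of 0.28 to 0.56 (median 0.37) on 6 Sham arrays and of 0.34 to 0.87 (median 0.76) on 8 HEP arrays. HEP 8 was the lowest at 0.34 and the other 7 lay at 0.72 or more, above all Sham arrays. Slc2a1 rose by 0.32 (SE 0.07, adjusted p = 0.00148) and by 0.37 without HEP 8. With no limit on closeness within groups it did not pass (adjusted p = 0.0629). Near 10, 2 of 8 tested members were called and 7 were positive, with a median of 0.42, against 2.82% and 51.0% of all genes. Without HEP 8 Bhlhe40, a transcriptional repressor induced by low oxygen and named after its values were seen, was called too (0.65, adjusted p = 0.0402).

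The regions before the starts of these 3 genes are shown because they were called in the same direction and hypoxia-inducible factors bind the core ACGTG. It was searched on both strands in the 250 bases before each start of the RefSeq promoter table (assembly GRCr8), where 16.6% of 33469 windows hold it. Hk1 has 2 start windows, and the one without a match is not shown. Matches are in capitals, each sequence running 5′ to 3′ along its gene. They lie at chr5:138002272-138002521 on the plus strand for Slc2a1, chr20:30842073-30842322 on the minus strand for Hk1 and chr8:130400889-130401138 on the minus strand for Higd1a.
Slc2a1: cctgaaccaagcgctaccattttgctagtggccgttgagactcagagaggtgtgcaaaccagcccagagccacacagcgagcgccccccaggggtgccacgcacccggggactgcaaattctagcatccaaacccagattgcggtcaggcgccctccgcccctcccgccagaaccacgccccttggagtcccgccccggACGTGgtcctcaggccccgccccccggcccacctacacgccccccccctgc
Hk1: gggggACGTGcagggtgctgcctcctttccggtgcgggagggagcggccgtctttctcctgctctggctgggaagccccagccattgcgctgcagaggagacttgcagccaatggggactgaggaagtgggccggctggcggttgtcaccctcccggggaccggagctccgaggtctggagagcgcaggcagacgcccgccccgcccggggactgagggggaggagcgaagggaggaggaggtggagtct
Higd1a: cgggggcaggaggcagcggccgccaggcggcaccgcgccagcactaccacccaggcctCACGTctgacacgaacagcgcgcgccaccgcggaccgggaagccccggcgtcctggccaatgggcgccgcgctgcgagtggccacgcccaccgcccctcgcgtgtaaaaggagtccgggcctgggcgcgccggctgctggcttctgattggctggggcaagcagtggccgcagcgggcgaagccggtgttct
Of the 10 members tested in either reading, 9 had a promoter in the table and 6 held a match, among them the 3 called. This counts genes with a match in any of their windows, whereas the 16.6% counts single windows, so they are not like measures. A match describes these letters and is not a binding site.

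Of 13 glucocorticoid-responsive genes tested near 10, 11 had positive differences (median 0.30), against 51.0% of all genes, and 1 was called, against 2.82% of all. This was Mt2A, a metallothionein that binds zinc and copper. It ran from 9.33 to 10.54 (median 9.92) on 7 Sham arrays and from 9.95 to 10.94 (median 10.70) on 8 HEP arrays, with HEP 8 lowest. The ranges overlapped, the mean rose by 0.74 (SE 0.18, adjusted p = 0.0310), and by 0.83 without HEP 8. The call ended without any 1 of 8 arrays (adjusted p up to 0.0770). Mt1, another metallothionein, had a difference of 0.04 (adjusted p = 0.982, named after its values were seen), and its signal was under 100 times as likely near 10 as below. Among the signals of 10 or more, Nr3c1, the glucocorticoid receptor itself, had decimals of 0.19 to 0.43 (median 0.33) on 6 Sham arrays and of 0.45 to 0.69 (median 0.63) on 6 HEP arrays. The groups did not overlap, with HEP 8 lowest in HEP, and Nr3c1 rose by 0.28 (SE 0.07, adjusted p = 0.00343), and by 0.31 without HEP 8. With probes chosen for closeness over all arrays, blind to the groups, it did not pass (adjusted p = 0.056).

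The window before the Mt2A start, chr19:10838709-10838958 on the minus strand of GRCr8, is shown because metallothionein genes are known for metal response elements. A loose form of their core, TGCNCNC with N any base, was searched on both strands. It occurs 5 times (capitals), and 43.4% of the RefSeq windows hold it at least once. Being looser than the core, it can mark stretches that are not cores.
Mt2A: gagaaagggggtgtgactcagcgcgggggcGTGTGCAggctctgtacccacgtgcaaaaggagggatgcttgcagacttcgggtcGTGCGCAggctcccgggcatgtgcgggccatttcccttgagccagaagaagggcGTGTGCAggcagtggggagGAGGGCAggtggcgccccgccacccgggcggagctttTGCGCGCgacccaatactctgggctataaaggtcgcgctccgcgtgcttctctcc

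Immediate early genes, which respond within minutes to growth factors and stress, had 2 calls among 7 tested, both upward, and 6 positive differences (median 0.28). Over all genes 2.82% were called and 51.0% were positive. Klf6, a zinc finger factor of injured endothelium, ran from 9.58 to 10.39 (median 10.24) on 8 Sham arrays and from 10.57 to 10.99 (median 10.85) on 7 HEP arrays. No HEP array overlapped Sham, HEP 8 being the lowest, and Klf6 rose by 0.65 (SE 0.14, adjusted p = 0.0122), and by 0.69 without HEP 8. A second Klf6 probe, at 10 or above, had a difference of -0.16. There a difference is known only up to a whole unit, so whether the probes agree cannot be told. Dusp6, a phosphatase that switches off ERK, ran from 9.65 to 10.45 (median 10.19) on 7 Sham arrays and from 10.50 to 10.81 (median 10.70) on 6 HEP arrays. These did not overlap, and the rise was 0.60 (SE 0.16, adjusted p = 0.0494), a call that ended without any 1 of 18 arrays (adjusted p up to 0.109). Jun and Fos, tested as well and named after their values were seen, had differences of 0.22 and -0.11 (adjusted p = 0.584 and 0.9).

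Carriers of the barrier moved in both directions. Slc1a1, a transporter of glutamate and cysteine, ran from 9.12 to 10.42 (median 9.30) on 8 Sham arrays and from 9.98 to 10.97 (median 10.53) on 7 HEP arrays, HEP 8 being lowest. The ranges overlapped, and Slc1a1 rose by 0.91 (SE 0.20, adjusted p = 0.0137), and by 0.98 without HEP 8. Its second probe near 10 had a difference of 0.84. Slc39a8, which imports zinc and manganese, ran from 10.10 to 10.96 (median 10.43) on 6 Sham arrays and from 9.16 to 10.93 (median 9.58) on 8 HEP arrays. HEP 8 was the 10.93, and the other 7 lay between 9.16 and 9.82, below every Sham array. Slc39a8 had a difference of -0.76 (SE 0.21, adjusted p = 0.0494) and of -0.94 without HEP 8 (adjusted p = 0.000750). With HEP 8 kept, its call ended without any 1 of 22 arrays (adjusted p up to 0.115).

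Of 13 tested solute carriers and related transporters 1 rose, 1 fell and 10 had negative differences (median -0.16). Without HEP 8 calls were also made for Mfsd2a, which carries docosahexaenoic acid into the brain (-0.85, adjusted p = 0.00505), and Slc38a5, a glutamine carrier named after its values were seen (-0.58, adjusted p = 0.0492). With HEP 8 they had differences of -0.71 and -0.53 (adjusted p = 0.0654 and 0.0901). Among 6 ABC and lipid transporters Atp10a, a phospholipid flippase, was called. Its readings were 10.12 to 10.87 (median 10.48) on 8 Sham arrays and 9.30 to 10.60 (median 9.58) on 8 HEP arrays. HEP 8 was the only HEP array at 10 or above, and the other 7 reached at most 9.81. Atp10a fell by 0.81 (SE 0.18, adjusted p = 0.0122) and had a difference of -0.93 without HEP 8.

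**Figure D3:**
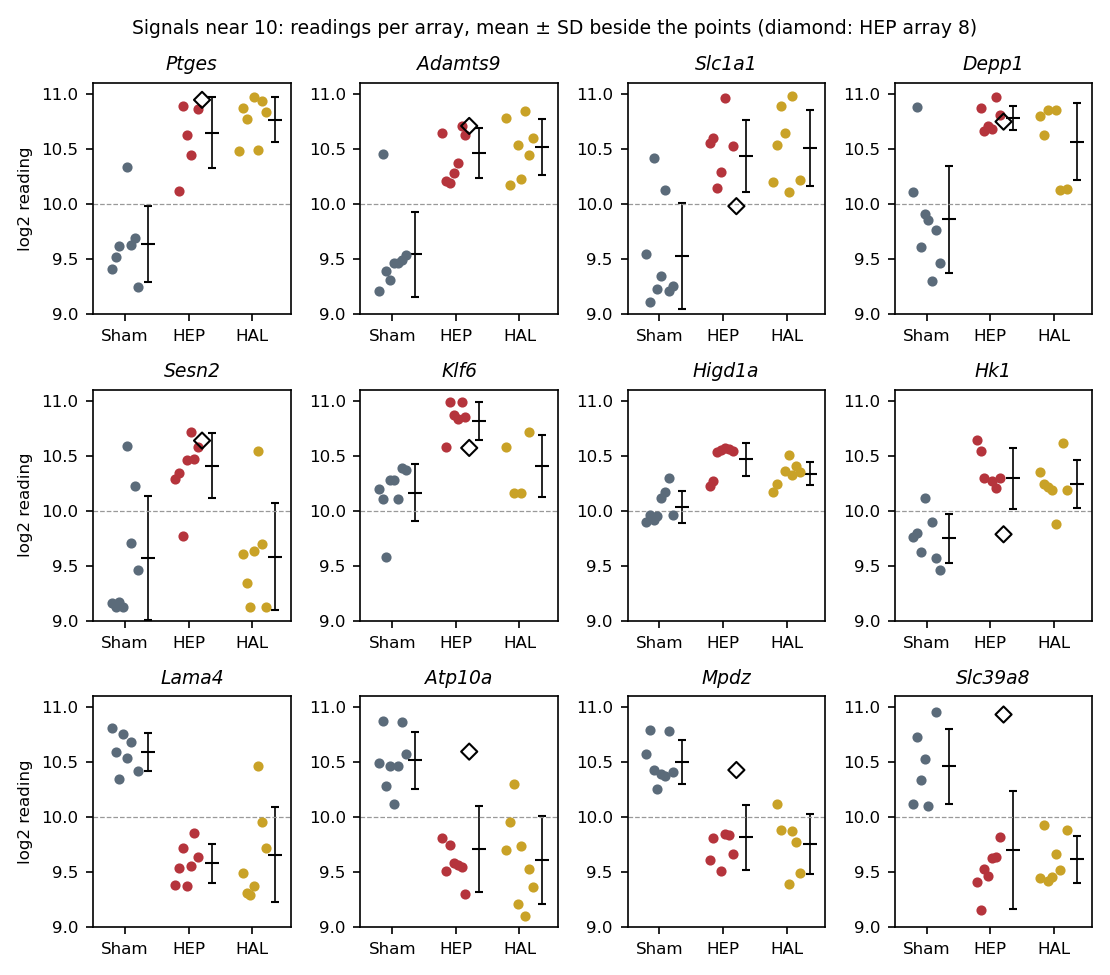
Log2 readings near 10 of 12 genes on each array, for Sham (grey), HEP (red, with HEP 8 as an open diamond) and HAL (yellow), with mean ± SD beside the points and a dashed line at 10. Ptges, Adamts9, Slc1a1, Depp1, Sesn2, Klf6, Higd1a and Hk1 are higher in HEP than in Sham, and Lama4, Atp10a, Mpdz and Slc39a8 lower, with HEP 8 among the Sham values in the last 3.

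At the junctions Mpdz, a scaffold that binds claudins and JAMs at tight junctions, ran from 10.26 to 10.79 (median 10.42) on 8 Sham arrays and from 9.51 to 10.43 (median 9.81) on 7 HEP arrays. HEP 8 lay at 10.43 and the others at 9.85 or less, below all Sham arrays. Mpdz fell by 0.69 (SE 0.14, adjusted p = 0.0122) and had a difference of -0.79 without HEP 8. It was the only call among 7 junction genes near 10 (median 0.05). Without HEP 8 Jam2, an adhesion molecule of tight junctions named after its values were seen, was called upward (0.51, adjusted p = 0.0167, against 0.42 and 0.0901 with it). At 10 or above Ptprb, the phosphatase of VE-cadherin and Tie2, had a difference of 0.23 (SE 0.07, adjusted p = 0.0267), a call that ended without any 1 of 5 arrays (adjusted p up to 0.113). Its other probe had a difference of 0.00. Cldn5, the main claudin of these vessels, had a difference of 0.04 (adjusted p = 0.673, named after its values were seen). Without HEP 8 the scaffold Tjp1 was called downward (-0.25, adjusted p = 0.0139), as was the cadherin partner Ctnnb1 (-0.15, adjusted p = 0.0418), both named after their values were seen. Another Ctnnb1 probe, near 10, had a difference of 0.06 with all arrays (adjusted p = 0.929).

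Cytoskeletal genes called near 10 all fell, 3 of 15 tested, against a list median of 0.05. Over all genes 1.21% were called lower. Tpm1, a tropomyosin of actin filaments, ran from 10.36 to 10.76 (median 10.57) on 7 Sham arrays and from 9.23 to 10.89 (median 9.68) on 7 HEP arrays. HEP 8 was the 10.89, and the other 6 lay below every Sham array. Tpm1 fell by 0.79 (SE 0.19, adjusted p = 0.0221) and had a difference of -0.97 without HEP 8. Its call ended without HEP 1, HEP 3 or HEP 6 (adjusted p = 0.0509 to 0.0563). Syne1, a nesprin that ties the nucleus to actin, and Limch1, an activator of non-muscle myosin, had differences of -0.67 and -0.60 (both adjusted p = 0.0494), and of -0.79 and -0.64 without HEP 8. These calls ended without any 1 of 22 and 16 arrays (adjusted p up to 0.112 for both). At 10 or above the GTPase Rac1 rose and the myosin light chain Myl12a fell. Rac1 had decimals of 0.12 to 0.54 (median 0.41) on 7 Sham arrays and of 0.50 to 0.77 (median 0.73) on 7 HEP arrays, which overlapped between 0.50 and 0.54. The difference was 0.29 (SE 0.07, adjusted p = 0.00148), and a second Rac1 probe near 10 had a difference of 0.40. Myl12a had medians of 0.60 in Sham and 0.40 in HEP and a difference of -0.22 (adjusted p = 0.0112), and of -0.24 without HEP 8.

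Among other genes with large changes near 10, Rasgrp3, an activator of Ras and Rap in endothelium, ran from 10.13 to 10.88 (median 10.71) on 7 Sham arrays and from 9.28 to 10.72 (median 9.47) on 8 HEP arrays. HEP 8 was the 10.72, and the other 7 lay at 9.71 or less. Rasgrp3 fell by 1.01 (SE 0.20, adjusted p = 0.0102) and had a difference of -1.16 without HEP 8. Cachd1, related to calcium channel subunits, lay at 10.11 to 10.61 on 7 Sham and at 9.33 to 9.67 on 7 HEP arrays, without overlap, and fell by 0.80 (adjusted p = 0.0117). Dock11, an activator of Cdc42, fell by 0.79, and Cxxc5, a zinc finger protein that dampens Wnt signalling, by 0.86. Rasgef1a, an exchange factor, fell by 0.77, Arid1b, a chromatin remodelling subunit, by 0.99, and Pde6b, a phosphodiesterase of photoreceptors, by 1.04, the last 2 at an uncertain level. Without HEP 8 the first 4 had differences of -0.90, -0.99, -0.70 and -0.94 in the same order.

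Upward, the secreted protein Wfdc1 lay at 9.34 to 10.39 on 6 Sham and at 10.28 to 10.94 on 6 HEP arrays, HEP 8 being lowest, and rose by 0.86 (adjusted p = 0.0122), and by 0.95 without HEP 8. Msl3l2 lay at 9.28 to 9.70 on 8 Sham arrays, with HEP 8 at 9.42 and the other HEP arrays at 9.94 to 10.61, and rose by 0.87 (adjusted p = 0.00492), and by 0.99 without HEP 8. The histone gene H4f3 lay at 9.14 to 9.84 on 8 Sham and at 9.62 to 10.97 on 8 HEP arrays, HEP 8 being lowest, and rose by 0.87 (adjusted p = 0.0345), and by 0.98 without HEP 8. Rgs12, a regulator of G protein signalling at an uncertain level, rose by 0.96, and by 1.23 without HEP 8, which was the lowest of its 5 HEP readings. The calls of Dock11, Cxxc5, Rasgef1a, Arid1b, Pde6b, H4f3 and Rgs12 each ended without any 1 of 4 to 16 arrays (adjusted p up to 0.109).

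In metabolism and timekeeping, Gsta4, a glutathione transferase that clears lipid peroxidation products, lay at 10.16 to 10.95 on 7 Sham and at 9.45 to 10.12 on 6 HEP arrays. The groups did not overlap, and Gsta4 fell by 0.73 (SE 0.15, adjusted p = 0.0122). Of 6 antioxidant and metallothionein genes it fell and Mt2A rose. Nr1d2, the clock repressor Rev-erb beta, lay at 10.73 to 10.95 on 7 Sham and at 9.77 to 10.29 on 5 HEP arrays, without overlap, and fell by 0.71 (SE 0.15, adjusted p = 0.0125). Another Nr1d2 probe, at 10 or above, had a difference of 0.35, where a difference is known only up to a whole unit. It was the only call among 8 clock genes (median 0.04).

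Many programmes had no call near 10 with all arrays. They included 11 genes of VEGF, angiopoietin, Notch and TGF-beta signalling (median 0.04), 10 of Wnt and Norrin signalling (median -0.175), 8 of inflammation (median 0.14), 4 of interferon response (median -0.295), 4 acute phase genes (median 0.11), 5 endoplasmic reticulum chaperones (median 0.13), 5 of cholesterol synthesis (median 0.16), 11 of translation (median 0.07) and 15 of the respiratory chain (median 0.05). The inflammatory gene closest to a call was the TNF receptor Tnfrsf1a, with a difference of 0.47 (adjusted p = 0.0731), called without HEP 8 (0.51, adjusted p = 0.0391). The Wnt list had no call with all arrays, in either reading. Without HEP 8 its target Mfsd2a, given above, and the co-receptor Adgra2, named after its values were seen, were called lower among 10 near 10 (Adgra2 -0.73, adjusted p = 0.00956, against -0.61 and 0.0987 with HEP 8). Both genes tested at 10 or above were then called lower too, Reck, the partner of Adgra2 in Wnt7 signalling (-0.31, adjusted p = 0.00394, against -0.22 and 0.0893), and Ctnnb1, given above. Over all genes 2.93% near 10 and 12.8% at 10 or above were called lower without HEP 8. With probes chosen for closeness over all 24 arrays, blind to the groups, 0 of 3 Wnt genes were called, 1 positive and 2 negative. Ribosomal proteins had no call among 2 genes near 10 and 10 at 10 or above (median 0.02), nor did 8 respiratory genes at 10 or above (median 0.03). A missing call does not show that a gene was the same in both groups. Over the 27 functional lists 20 of 196 genes tested near 10 were called (10.2%), against 2.82% of all, but the lists were chosen with earlier results of these data known, so this share is no independent evidence.

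**Figure D4:**
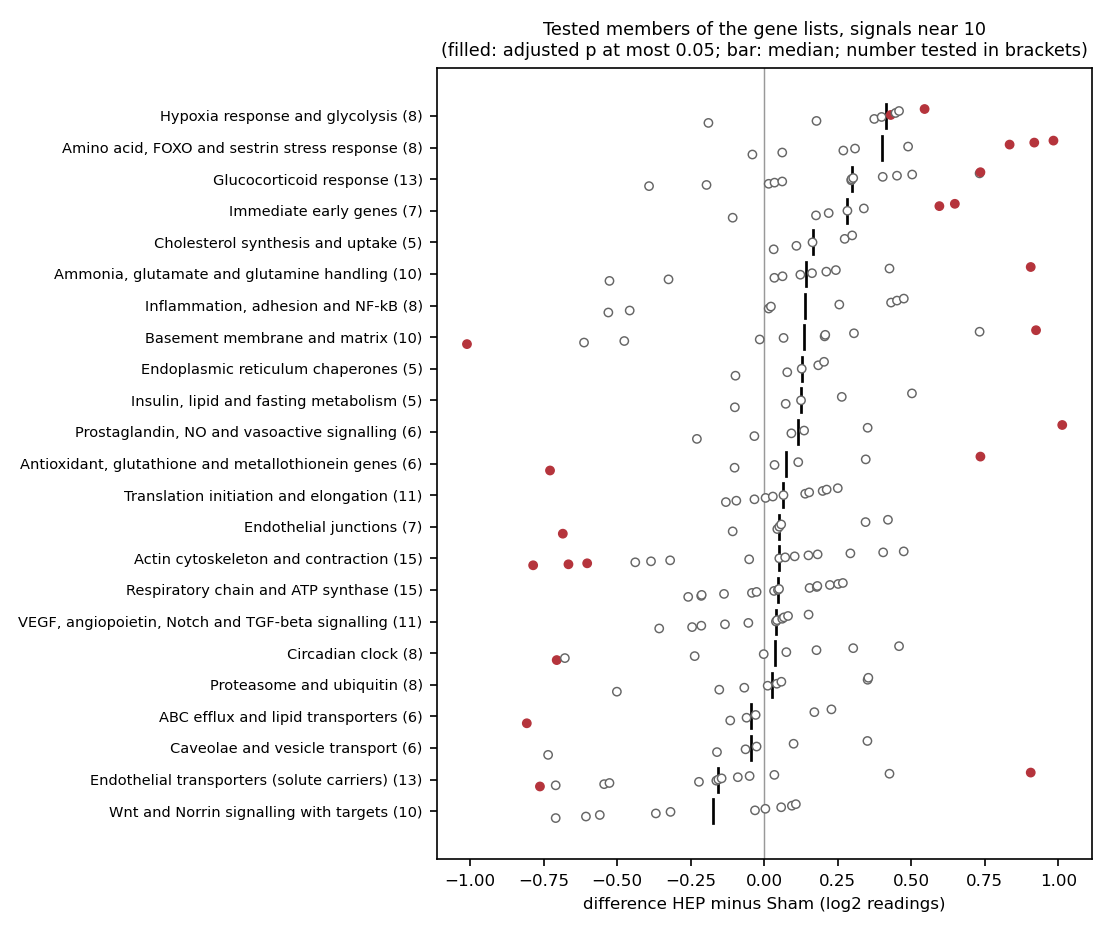
Differences HEP minus Sham in log2 readings of the tested members of each functional list with at least 5 members near 10, filled where the adjusted p was at most 0.05, with a bar at the list's median. Hypoxia and amino acid stress genes have medians of 0.42 and 0.40 and the Wnt list of -0.175, against 0.01 over all genes tested.

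Among signals of 10 or more, 44 of 307 genes were called (14.3%), 21 higher (6.84%) and 23 lower (7.49%), with sizes of 0.17 to 0.44 and a median of 0.26. The median difference over all 307 was -0.02. Without HEP 8 there were 61 calls among 304 genes (20.1%), 22 higher (7.24%) and 39 lower (12.8%), with all 44 kept. All HEP decimals lay outside the Sham range for 6 of 307 genes (1.95%), and for 28 (9.12%) without HEP 8. As said, the limit on closeness within each of the 3 groups lowers the spread that the test uses. With closeness asked over all 24 arrays together, blind to the groups, 6 of 661 genes were called (0.908%), all of them among the 44. Of the 44 genes 33 were tested that way and 32 of these kept their sign. Without HEP 8 that choice gave 19 of 636 (2.99%), 15 of them among the 44. With no limit on closeness 10 of 1394 were called (0.717%), 5 of them among the 44.

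Of the 6 genes called either way 3 rose and 3 fell. Shisa5, a membrane protein of the endoplasmic reticulum induced by p53, had decimals of 0.24 to 0.47 (median 0.36) on 6 Sham arrays and of 0.45 to 0.93 (median 0.73) on 8 HEP arrays. HEP 8 was lowest and the only one inside the Sham range, and the rise was 0.35 (SE 0.06, adjusted p = 0.000167, and 0.00787 with the choice over all arrays), and 0.39 without HEP 8. Atp6v0c, a subunit of the proton pump of lysosomes, had 0.16 to 0.50 (median 0.35) on 5 Sham and 0.41 to 0.80 (median 0.66) on 7 HEP arrays. HEP 8 was again lowest, and the rise was 0.31 (adjusted p = 0.0018 and 0.0455), and 0.35 without HEP 8. Rac1, given above, passed with 0.0367.

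Of the 3 that fell, Gab1, a docking protein behind growth factor receptors, had decimals of 0.60 to 0.93 (median 0.69) on 7 Sham and of 0.26 to 0.74 (median 0.40) on 8 HEP arrays. HEP 8 was highest in HEP, the others lying at 0.45 or less, below all Sham arrays. Gab1 fell by 0.28 (SE 0.06, adjusted p = 0.00172 and 0.0415) and had a difference of -0.33 without HEP 8. Ubl3, a ubiquitin-like membrane protein, fell by 0.29 (adjusted p = 0.00122 and 0.0367), with 0.70 to 0.86 on 5 Sham and 0.42 to 0.73 on 7 HEP arrays. Hnrnpu, a nuclear RNA-binding protein, fell by 0.34 (adjusted p = 0.000844 and 0.0367) and had a difference of -0.39 without HEP 8, but its second probe had a difference of 0.15.

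**Figure D5:**
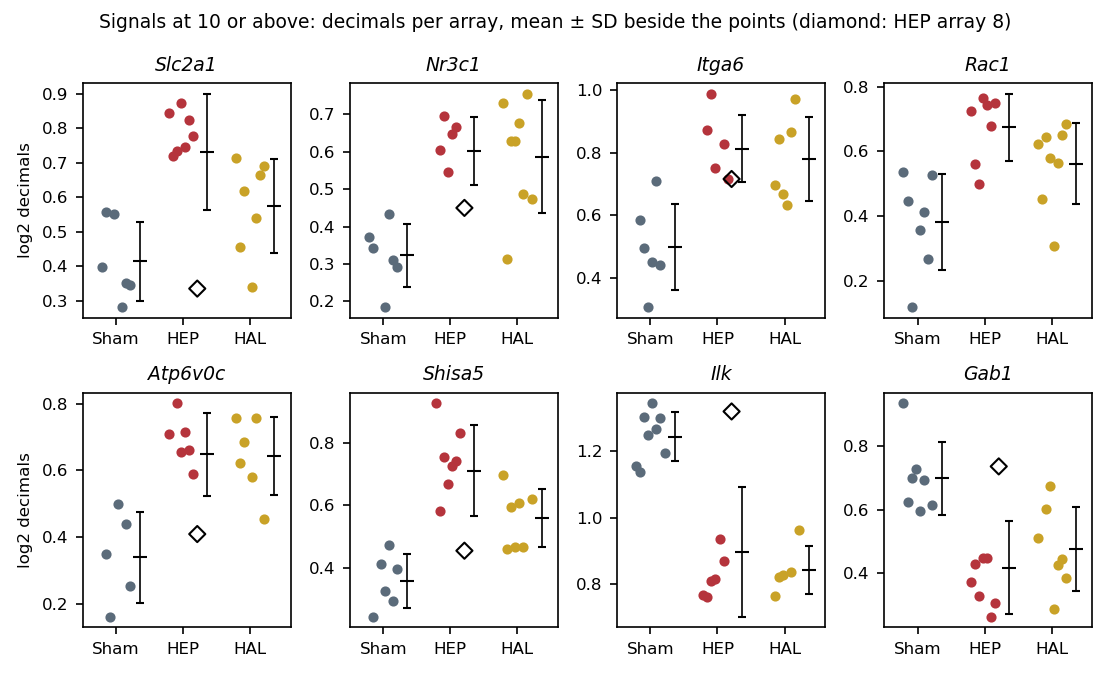
Decimals of log2 signals at 10 or above for 8 genes on each array, for Sham (grey), HEP (red, HEP 8 as an open diamond) and HAL (yellow), with mean ± SD beside the points; values are known up to a whole log2 unit. Slc2a1, Nr3c1, Itga6, Rac1, Atp6v0c and Shisa5 lie higher in HEP than in Sham and Ilk and Gab1 lower, and HEP 8 lies within or near the Sham values in most of them.

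The other calls at 10 or above were not made with the choice over all 24 arrays, where the gene was either not tested or did not pass. Integrin signalling was represented by Itga6, a laminin receptor, which rose by 0.31 (SE 0.07, adjusted p = 0.00156), and by Ilk, the kinase bound to integrin tails, which fell by 0.35 (SE 0.06, adjusted p = 0.000203). Without HEP 8 they had differences of 0.33 and -0.42, the latter past the 0.4 up to which a direction is given. Ilk lay at 1.14 to 1.34 on 8 Sham arrays, and on HEP arrays at 1.32 for HEP 8 and at 0.76 to 0.93 for the others. In vesicle transport, Rab11a of recycling endosomes rose by 0.32 and the syntaxin Stx12 by 0.21, and by 0.23 without HEP 8 (adjusted p = 0.00148 and 0.00829). With Ctsl, for which no direction is given, 3 of 6 genes of this list were called at 10 or above, against 14.3% of all genes, and 0 of 6 near 10 (median -0.04). Eif3d, a subunit of translation initiation factor 3, rose by 0.33, and Psmc2, an ATPase of the proteasome, by 0.26 (adjusted p = 0.00148 and 0.0223), with 0.34 and 0.30 without HEP 8. Ggnbp2 rose by 0.27 (adjusted p = 0.00604), and by 0.28 without HEP 8, with a difference of 0.28 (adjusted p = 0.277) at its probe near 10. The call of Psmc2 ended without any 1 of 4 arrays (adjusted p up to 0.0776). Hpcal1, a calcium sensor protein, rose by 0.32 (adjusted p = 0.00604), and by 0.39 without HEP 8. Its HEP 8 decimals of 0.14 lay below the Sham range of 0.15 to 0.55 and the other 7 HEP arrays at 0.57 or more, above it.

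Downward, the Hippo scaffold Sav1 fell by 0.37 and the Ras activator Sos1 by 0.34 (adjusted p = 0.000654 and 0.00017), in both cases with HEP 8 at the Sham level. Without it the differences were -0.44, past 0.4, and -0.39. The chromatin protein Hmgn2 fell by 0.32, the polyamine carrier Slc18b1 by 0.28, and Zc3h11a and Dcaf11 by 0.25 each (adjusted p = 0.0018 to 0.00841). Without HEP 8 Hmgn2, Zc3h11a and Dcaf11 had differences of -0.31, -0.29 and -0.28. The call of Zc3h11a ended without HEP 7 (adjusted p = 0.0634). Ctsl, Adgrf5 and Itprid2, the last 2 named after their values were seen, differed by more than 0.4 and have no direction here. Ctsl, the lysosomal protease cathepsin L, had decimals of -0.18 to 0.11 on 7 Sham and 0.16 to 0.51 on 6 HEP arrays, without overlap (size 0.44, adjusted p = 6.65e-06), while its other probe, at 10 or above, had a difference of -0.01.

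The probes of a gene did not always agree. Of the 49 genes called near 10, 13 had another probe that could be read, and 10 of these had the same sign. Klf6, Nr1d2 and B4galt5, the last named after its values were seen, were the exceptions. The other probes of Klf6 and Nr1d2 lie at 10 or above, where a difference is known only up to a whole unit. Their signs, and those of other such probes in these counts, are therefore not settled. The other B4galt5 probe lies near 10 (-0.22). Of the 44 genes at 10 or above, 10 had 11 such probes, 7 with the same sign. At least 1 further probe below 10, not read, was held by 25 and 18 of the called genes.

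Set directly against HAL, HEP gave 0 calls among 1738 genes near 10 (0.0%) in limma, with 161 at an unadjusted p under 0.05 (9.26%), and 0 without HEP 8, with 148 (8.52%). Both groups had the anastomosis first, so this contrast sets removal of the liver against ligation of its artery. Sesn2 had the HEP mean of 10.41 ± 0.30 (SD, n = 8) against 9.58 ± 0.49 (SD, n = 7) in HAL and 9.57 ± 0.56 (SD, n = 8) in Sham, and its difference from HAL of 0.82 did not pass (adjusted p = 0.313). Dusp6 and Klf6 had differences from HAL of 0.54 and 0.41 (adjusted p = 0.384 and 0.517). Ptges and Lama4 had means of 10.77 and 9.66 in HAL, and differences of HEP from HAL of -0.12 and -0.08 (adjusted p = 0.889 and 0.939). HEP and HAL were compared with the same Sham arrays, so their changes from Sham are not independent.

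At 10 or above, 2 of 307 genes were called between HEP and HAL (0.651%), both higher in HEP, and 2 of 304 without HEP 8 (0.658%). Stx12 had decimals of 0.54 to 0.89 (median 0.71) on 8 HEP arrays, of 0.32 to 0.61 (median 0.45) on 7 HAL arrays and of 0.35 to 0.64 (median 0.51) on 8 Sham arrays. HEP overlapped both other groups at its lower end, and HEP exceeded HAL by 0.26 (adjusted p = 0.0254). Hpcal1 had medians of 0.68 in HEP, 0.29 in HAL and 0.26 in Sham, and HEP exceeded HAL by 0.32 (adjusted p = 0.0261). Without HAL 2, HAL 4, HAL 5 or HEP 4, and with adjustment over both readings, there were 0 calls in limma. With the choice of probes over all 24 arrays together 0 of 661 genes were called, 67 having an unadjusted p under 0.05.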

How the data were processed

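RNA of cortical microvessels was measured on 24 Affymetrix arrays. The deposited table was made with RMA, per the submitters' processing notes (version not given in the sources used here). RMA gives log2 signals, but the deposited cells, as provided here, are other numbers: whole numbers taken as the decimals of those log2 values. The labelling kit named in the labels is for whole-transcript arrays, while the probe names are those of a 3' array. Cells of under 8 digits were left out (13.5% near 10, 18.5% at 10 or above). Since zeros at the start of the decimals are lost, values just over 10 are among the cells left out near 10. A gene was represented by its probe of the highest mean reading near 10, or by its probe of the most readings at 10 or above, and needed 2 readings in each group near 10 and 4 at 10 or above. The mean resultant length, which measures closeness on the circle from 0 to 1, had to be 0.6 in each group.

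limma 3.58.1 in R 4.3.3 was fitted to the 24 arrays with group means, eBayes and Benjamini-Hochberg adjustment within each reading. The scripts were tested on simulated data. Samples of the same number were not paired: correlations of their deviations ran from -0.0547 to 0.143 near 10 and from -0.0848 to 0.18 at 10 or above. The number of arrays limits the precision. Genes, lists and alternatives were chosen with earlier results of these data known. The rule for names was the 10 largest rises and falls of each reading (up to 0.4 at 10 or above) and, of each list, up to 3 called members or else the one of smallest p. Lists without a call are mostly given by their counts and medians, without that last member. Python 3.11.15 read the digits. Gene names came from the platform annotation (436 probes with several symbols and 9831 with none were left out), and 20764 of 20832 probes matched the GRCr8 gene table.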

Additional observations from a re-analysis of the deposited data

Results flagged for a closer look

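In 21 of 114 groups examined (57 of the called genes named, Sham and HEP), 1 array stood apart from the rest of its group by Dixon's test, where chance flags about 1 in 20. Ggnbp2, Fgl2 and B4galt5 were not examined. In 13 of the 21 groups it was HEP 8. It lay lowest for Gadd45g (9.16), Rgs12 (9.38), Hpcal1 (decimals 0.14) and Slc2a1 (decimals 0.34), and highest for Rasgrp3 (10.72), Atp10a (10.60), Tpm1 (10.89), Slc39a8 (10.93), Mpdz (10.43), Sav1 (decimals 0.99), Ilk (1.32), Sos1 (0.77) and Gab1 (0.74). Among other HEP arrays, HEP 3 was lowest for Sesn2 (9.77), HEP 1 was highest for Ubl3 (decimals 0.73) and lowest for Slc18b1 (-0.18). Among Sham arrays, Sham 5 was highest for Ptges (10.34), Sham 2 for Adamts9 (10.46), Sham 6 for Msl3l2 (9.70) and Sham 1 for Gab1 (decimals 0.93), and Sham 3 was lowest for Klf6 (9.58).

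The difference between HEP and HAL itself passed for Hpcal1 (0.32) and Stx12 (0.26), both at 10 or above and higher in HEP. Both calls were lost without any 1 of HAL 2, HAL 4, HAL 5 and HEP 4, and with adjustment over both readings.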

How the results depend on the processing

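Near 10 the 49 calls between HEP and Sham became 32 with 3 to 12 cells of 9 digits (863 genes tested), 32 with HEP and Sham alone in the fit, 6 among 442 genes with decimals above 0.5 below 10 and under 0.5 from 10, and 98 with array weights. Chosen after seeing the data and not blind to the groups, the likelihood minimum gave 99, and 150 without HEP 8 as well. With decimals as angles 0 genes were called in limma (140 at an unadjusted p under 0.05). That setting cannot hold a difference above 0.5, and it turned the sign of Depp1 (-0.0815), H4f3 (-0.13), Msl3l2 (-0.0092), Klf6 (-0.19), Hk1 (-0.0261), Pde6b (0.30), Arid1b (0.13), Atp10a (0.0673), Cachd1 (0.20), Dock11 (0.0683), Tpm1 (0.0710), Slc39a8 (0.11), Gsta4 (0.13), Nr1d2 (0.29), Mpdz (0.17) and Syne1 (0.0840). With 1 array left out the count ran from 22 (without HEP 7) to 113 (without HEP 8), with 23 without HEP 6, 29 without HEP 4 or HEP 5 and 30 without HEP 3. Of 31 called genes named near 10, 14 were called with any 1 array left out, and of 26 at 10 or above, 23. Fgl2, B4galt5 and Ggnbp2 are not in these counts.

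The 44 calls at 10 or above became 10 with no limit on closeness, 6 with a resultant length of 0.8 (54 genes tested), 79 with the centre taken from Sham and HEP alone (475), 22 with a leading zero for short cells (169) and 71 with array weights. Chosen after seeing the data, a length of 0.5 over 24 arrays gave 6 and over 23 arrays without HEP 8 gave 19, and leaving HEP 8 out of the choice too gave 78. Ctsl turned to -0.0113 (no limit, and 24 arrays) and -0.0198 (23 arrays), and Ptprb to -0.0017 (no limit), since another probe then stood for the gene. With 1 array left out the count ran from 38 to 61 (without HEP 8).

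Against HAL the likelihood minimum without HEP 8 gave 2 calls near 10, and leaving 1 array out gave 0 to 1. The 2 calls at 10 or above became 0 with no limit on closeness, with 0.5 over 24 or 23 arrays and with adjustment over both readings, 4 with 0.8, 8 with arrays centred and 26 with array weights, and ran from 0 to 14 (without HAL 7) with 1 array left out. A replicate block gave 41 and 43 calls between HEP and Sham, 32 and 39 of them among the 49 and 44, and 0 and 4 against HAL, although the numbers do not pair the samples. The causes of these changes were not tested, except where the construction is stated.

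Signals below 10 were not read, short cells were left out, and a difference at 10 or above is known only up to a whole log2 unit.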
